A study of Homo sapiens with 6 samples.

Results

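The genes described here are 8 core components of PI3K, AKT and mTOR signalling: the PI3K catalytic subunits PIK3CA and PIK3CB, the kinases AKT1 and AKT2, the kinase MTOR with its partner RPTOR, and the tuberous sclerosis genes TSC1 and TSC2. They were taken by symbol from a list of pathway components, which was drawn up with earlier results of these data known, and all 8 were found by Ensembl identifier among the 58395 genes of the files. HCT116 cells are an established line grown from a human colorectal carcinoma. RNA was sequenced from 3 biological replicates that carried a non-target control hairpin (shControl) and from 3 that carried a hairpin against STBD1 (shSTBD1), a cargo receptor that brings glycogen to the autophagosome. The comparison asked how lowering STBD1 changed gene expression in these cancer cells. Per the methods, hairpins are delivered by lentivirus, infected cells are selected with puromycin, and each group rests on 1 hairpin sequence, so the groups also differ in the hairpin itself. Both groups were grown in the same serum-containing medium, and no further treatment is named.

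Growth factor receptors recruit PI3K, whose catalytic subunits p110alpha (PIK3CA) and p110beta (PIK3CB) make the membrane lipid PIP3, and PIP3 brings AKT kinases to the membrane. Active AKT phosphorylates TSC2, which together with TSC1 otherwise keeps the small GTPase RHEB off, and RHEB in turn activates the mTOR kinase within a complex whose substrates are recruited by raptor (RPTOR). The pathway promotes growth and protein synthesis and restrains autophagy, it is regulated largely by phosphorylation, and HCT116 cells are known to carry an activating mutation in PIK3CA.

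Levels in the comparison are CPM, the expected read counts of a gene scaled to library size with edgeR's TMM factors. The libraries held between 17689097 and 21668274 expected counts, and the common biological coefficient of variation between replicates was 3.37%. Of the 15566 genes tested by edgeR's quasi-likelihood test, 2453 (15.8%) had an adjusted p under 0.05, the threshold used throughout for a call, of which 1280 (8.22% of those tested) were higher and 1173 (7.54%) lower in shSTBD1. For 33.6% of the tested genes, the 3 libraries of a group all lay on the same side of those of the other. STBD1, the targeted gene, was 16.2, 15.7 and 14.4 CPM in shControl and 11.6, 9.06 and 9.18 in shSTBD1, or -0.64 on the log2 scale (standard error, SE, 0.098, edgeR adjusted p = 2.9e-04). Of 10 colorectal epithelial markers, 7 were tested, of which KRT8, KRT18, KRT19 and CDH1 were called higher in shSTBD1, EPCAM ran from 213 to 226 CPM over the 6 libraries, and CDX1, VIL1 and LGR5 stayed under 1 CPM. Of 12 markers of other cell types, 10 stayed under 1 CPM, PTPRC and CD3E with no count in any library, while COL1A1 was 30.9 to 40.3 CPM and CD68 was 8.38 to 10.3 CPM in shControl and 13.1 to 13.9 in shSTBD1, where it was called higher.

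Of the 8 genes, all were tested and 1, AKT1, had an adjusted p under 0.05, a share near that of all tested genes. The groups did not overlap for 3 of them, AKT1 (higher in shSTBD1), RPTOR and TSC2 (both lower), again near the share of all tested genes. The median log2 fold change of the 8 was -0.02, against 0.00 for all tested genes, with 3 genes above 0 and 5 below. The effects of the 7 genes other than AKT1 did not pass the threshold.

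**Figure D1:**
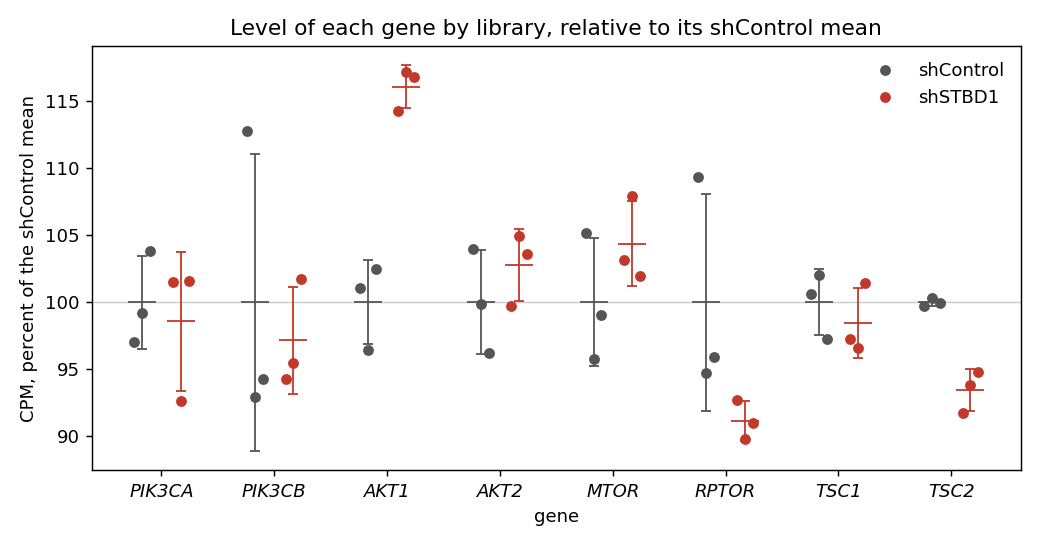
Level of each of the 8 genes in the 3 shControl (grey) and 3 shSTBD1 (red) libraries, as CPM in percent of the gene's own shControl mean; points are libraries, short horizontal lines the group means and bars the SD (n = 3). AKT1 lies between 114% and 117% of its control mean in shSTBD1, RPTOR between 89.8% and 92.7% and TSC2 between 91.8% and 94.8%, while the groups of the other 5 genes overlap.

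Among the catalytic subunits, PIK3CA (ENSG00000121879, chromosome 3, 179148114 to 179240093 of GRCh38) encodes p110alpha, the form most used by growth factor receptors. It stood at 25.9, 26.4 and 27.7 CPM in shControl and at 27.1, 24.7 and 27.1 CPM in shSTBD1. The groups overlapped, and the lowest library was an shSTBD1 one. The log2 fold change was -0.02 (SE 0.06, 95% interval -0.15 to 0.11, adjusted p = 0.85 from edgeR). PIK3CA had the fewest reads of the 8, with 490 to 552 expected counts per library.

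PIK3CB (ENSG00000051382, chromosome 3, 138652698 to 138834928) encodes p110beta, which also responds to G protein-coupled receptors. Its levels were 75.4, 62.2 and 63.0 CPM in shControl and 63.1, 63.9 and 68.0 CPM in shSTBD1. A single control library, replicate 1, stood above the other 5, and the remaining control libraries were the lowest of all. The log2 fold change was -0.04 (SE 0.061, adjusted p = 0.71 from edgeR), and without shControl replicate 1 it was 0.05 (adjusted p = 0.48 from edgeR), so its direction rested on that library.

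AKT1 (ENSG00000142208, chromosome 14, 104769349 to 104795751, minus strand) encodes the AKT kinase most broadly used across tissues. It was measured at 174, 166 and 177 CPM in shControl and at 197, 202 and 202 CPM in shSTBD1. Each shSTBD1 library lay above each control library, by more than the range within either group. The mean rose from 172 ± 5.42 to 200.2 ± 2.77 CPM (SD, n = 3), or by 16.1%. The log2 fold change was 0.22 (SE 0.033, 95% interval 0.15 to 0.29, adjusted p = 3.0e-04, edgeR with Benjamini-Hochberg correction), rank 340 of the tested genes by p. Under each of the 16 other settings, which change the scaling, the filter, the tool, the unit or leave out 1 library, AKT1 stayed higher and past the threshold, with a log2 fold change of 0.19 to 0.24 and an adjusted p of 7.6e-08 to 0.045.

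AKT2 (ENSG00000105221, chromosome 19, 40230317 to 40285536), the AKT kinase best known for its part in insulin-stimulated glucose uptake, was 135, 130 and 125 CPM in shControl and 129.99, 137 and 135 CPM in shSTBD1. The groups overlapped over most of their range. The log2 fold change was 0.04 (SE 0.037, 95% interval -0.04 to 0.12, adjusted p = 0.51 from edgeR), so the upper end of the AKT2 interval lay below the lower end of the AKT1 interval.

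The ratio of AKT1 to AKT2, in CPM, was 1.29, 1.28 and 1.41 in shControl and 1.52, 1.48 and 1.49 in shSTBD1. The ratio was thus higher in each shSTBD1 library than in any control library, by 0.18 on the log2 scale (two-sided exact permutation test, p = 0.1, which is as low as groups of 3 can reach, 0.13 when adjusted over the 4 ratios). On TPM, which is scaled by transcript length, the difference was 0.26 on the log2 scale, and the groups did not overlap either. The 4 ratios between partner genes were chosen after the values were seen.

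The 3′ end of AKT1 is overlapped over 923 bases by a lncRNA on the opposite strand (ENSG00000258430, chromosome 14, 104769349 to 104770271). It is not stated in the sources used here whether the counting used strand, and without strand the reads of the 2 genes cannot be told apart. The files gave this lncRNA 7.22, 8.81 and 5.31 CPM in shControl and 9.84, 10.7 and 8.02 CPM in shSTBD1. Its part in the AKT1 level was not tested. RSEM's posterior standard deviation of the AKT1 count was at most 0.735% of the count.

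The control hairpin enters every comparison, so the 3′ UTRs of the 8 genes were searched on the transcript strand for GTGTCAC, 7 bases that also stand in the control hairpin and were taken up from an earlier result on these data. Where the guide strand of the processed hairpin starts is not known, so these need not be the bases that pair with a target. Of the 8 genes, AKT1 was the 1 whose canonical transcript held these bases (1 match, at base 706 of a 3′ UTR of 992 bases, chr14:104769629-104769635 of GRCh38, minus strand). The site is shown because the gene that rose carries it, with the 7 matching bases in capitals and 10 bases on each side in GENCODE release 44:

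AKT1: ttccccttctGTGTCACagttcttggt

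Over all tested genes with an annotated 3′ UTR, 1271 (9.81%) held the 7 bases. Of these 18.6% were called higher and 8.42% lower in shSTBD1, against 8.48% and 8.56% of the 11689 genes without them. The sets were not matched for 3′ UTR length, and no other bases were searched for comparison. Since the 7 bases came from an earlier result on these data, this difference is not an independent test of the site. The part of this site in the level of AKT1 was not tested. No library without a hairpin was analysed here, so an effect of the control hairpin and an effect of the STBD1 hairpin cannot be told apart.

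MTOR (ENSG00000198793, chromosome 1, 11106535 to 11262556), the kinase of both mTOR complexes, was 162, 147 and 152 CPM in shControl and 159, 166 and 157 CPM in shSTBD1. Control replicate 1 fell among the shSTBD1 libraries, and the groups overlapped. The log2 fold change was 0.06 (SE 0.038, 95% interval -0.02 to 0.14, adjusted p = 0.30 from edgeR). Without shControl replicate 1 it was 0.10 and passed the threshold (adjusted p = 0.035 from edgeR), and with offsets for effective length, the length RSEM assigns to a gene from the transcripts it finds in a library, it was -0.05 (adjusted p = 0.74).

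RPTOR (ENSG00000141564, chromosome 17, 80544819 to 80966371) encodes raptor, the scaffold that defines mTORC1 and presents substrates to its kinase. It stood at 129.59, 112 and 114 CPM in shControl and at 109.9, 106 and 108 CPM in shSTBD1. All 3 shSTBD1 libraries were below the lowest control, but by less than the distance between control replicate 1 and the other controls. The log2 fold change was -0.13 (SE 0.047, 95% interval -0.23 to -0.03), with an unadjusted p of 0.011 and an adjusted p of 0.064 from edgeR. RPTOR was lower under all 16 other settings, from -0.19 to -0.07, and passed the threshold in 4 of them. Without shControl replicate 1 its log2 fold change was -0.07 (adjusted p = 0.19 from edgeR), and without shControl replicate 2 it was -0.17 (adjusted p = 0.027).

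The ratio of RPTOR to MTOR was 0.801, 0.763 and 0.747 in shControl and 0.693, 0.641 and 0.688 in shSTBD1. Each shSTBD1 library thus held less RPTOR for its MTOR than any control, a log2 difference of -0.19 (exact permutation test, two-sided, p = 0.1, again the lowest it can reach, 0.13 adjusted over the 4 ratios). On TPM the difference was -0.13, and the groups overlapped.

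TSC1 (ENSG00000165699, chromosome 9, 132891348 to 132946874) encodes hamartin, which stabilises TSC2. Its levels were 50.5, 51.2 and 48.9 CPM in shControl and 48.8, 48.5 and 50.9 CPM in shSTBD1. The groups overlapped almost fully, with a log2 fold change of -0.02 (SE 0.045, 95% interval -0.12 to 0.07, adjusted p = 0.77 from edgeR).

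TSC2 (ENSG00000103197, chromosome 16, 2047967 to 2089491) encodes tuberin, the part of the complex that switches RHEB off and is phosphorylated by AKT. It was measured at 87.8, 88.3 and 88.0 CPM in shControl, the closest replicates of the 8 genes, and at 80.8, 82.6 and 83.5 CPM in shSTBD1. The groups were apart, and the gap between them was wider than the range within either. The mean was 88.0 ± 0.27 against 82.3 ± 1.37 CPM (SD, n = 3). The log2 fold change was -0.10 (SE 0.035, 95% interval -0.17 to -0.02, unadjusted p = 0.014, adjusted p = 0.073 from edgeR). It was negative in all 16 other settings, from -0.11 to -0.09, and passed the threshold in none of them (lowest adjusted p = 0.064).

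TSC2 shares its last 784 bases of genome with PKD1, which is read from the opposite strand. PKD1 was 171.45, 169 and 171.06 CPM in shControl and 160.3, 163 and 164 CPM in shSTBD1, also lower in each shSTBD1 library (log2 fold change -0.07, SE 0.031, adjusted p = 0.14 from edgeR). Whether reads of the shared bases entered the TSC2 values was not tested. The ratio of TSC2 to TSC1 was 1.74, 1.72 and 1.80 in shControl and 1.65, 1.70 and 1.64 in shSTBD1, apart by 0.07 on the log2 scale (two-sided exact permutation test, p = 0.1, 0.13 adjusted over the 4 ratios), whereas on TPM the groups overlapped. The ratio of PIK3CA to PIK3CB overlapped between the groups on both scales (exact permutation test, p = 0.9).

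Apart from that lncRNA and PKD1, 1 of the 21 genes of the files that overlap a member, a lncRNA within AKT2 (ENSG00000205041), exceeded 1 CPM in any library, at 3.35 to 3.61 in shControl and 1.87 to 2.99 in shSTBD1. The others stayed below that level, and MTOR-AS1 had no count in any library.

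**Figure D2:**
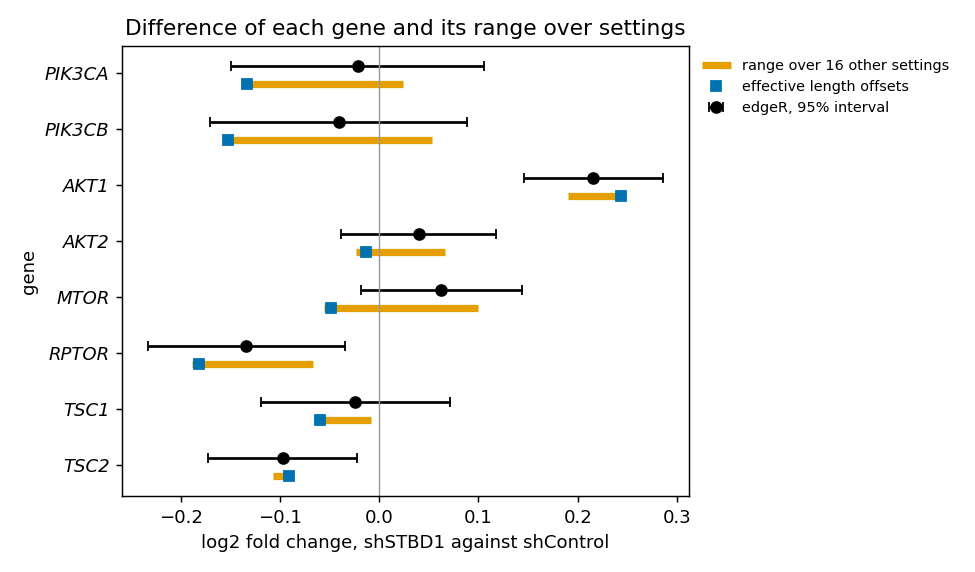
Log2 fold change of each gene (shSTBD1 against shControl, horizontal axis). Black points and bars give the edgeR estimate with its 95% interval, orange bars the range over the 16 other settings and blue squares the estimate with effective length offsets. The AKT1 interval lies above 0, those of RPTOR and TSC2 lie below 0 without passing the adjusted threshold, and the orange bars of PIK3CA, PIK3CB, AKT2 and MTOR cross 0.

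Scaling by effective length changed the picture for the weaker genes. With these offsets, 511 of the tested genes (3.28%) had an adjusted p under 0.05, while limma called 292 (1.88%) on log2(TPM + 1) and 290 (1.86%) on log2(TPM + 0.1). AKT1 was the 1 of the 8 that passed in these 3 fits. Under them 7 of the 8 genes, all but AKT1, were lower in shSTBD1, against 5 of 8 on counts, since AKT2 and MTOR moved to the other side of 0.

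Levels between genes are compared on TPM, which is per length. AKT1 was the most abundant, at 82.5, 79.6 and 82.8 TPM in shControl and 94.1, 93.7 and 100.18 TPM in shSTBD1, above 91.0% of the tested genes. AKT2 followed at 69.8 to 76.0 TPM over the 6 libraries, and TSC2 at 41.1 to 48.2. These 3 kept this order in all 6 libraries, without overlap of their ranges.

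RPTOR (27.8 to 34.6 TPM), PIK3CB (26.4 to 39.4) and MTOR (23.2 to 27.4) came next, and neighbours among them overlapped: RPTOR exceeded PIK3CB in 3 of 6 libraries and PIK3CB exceeded MTOR in 5 of 6. PIK3CB varied most among the controls, at 39.4, 26.4 and 30.5 TPM, and its effective length was 2133 bases in shControl replicate 1 against 2368 to 2749 in the other libraries. TSC1 (10.9 to 13.6 TPM) and PIK3CA (6.16 to 8.89) were lowest and did not overlap with the gene above them. TSC2 was thus more abundant than its partner TSC1, and PIK3CB more than PIK3CA, in each of the 6 libraries.

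**Figure D3:**
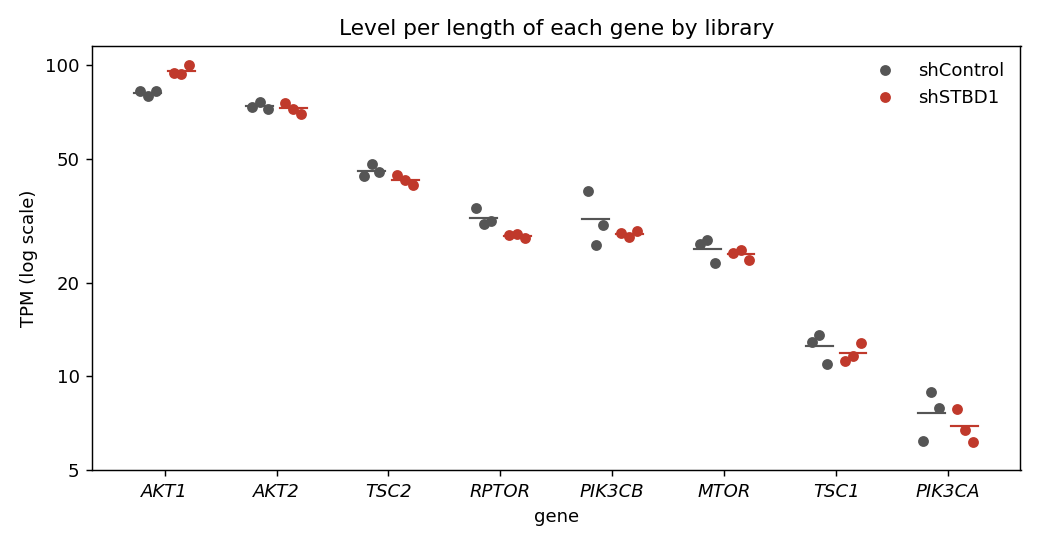
Level per length (TPM, log scale) of each gene in the 3 shControl (grey) and 3 shSTBD1 (red) libraries, ordered by the median over all 6; horizontal lines are group means. AKT1 and AKT2 stand highest, TSC1 and PIK3CA lowest, and RPTOR, PIK3CB and MTOR overlap.

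The genes whose log2 CPM followed that of AKT1 most closely over the 6 libraries were RBM15B (Pearson r = 0.998), BICDL1 (0.997) and ZNF652 (0.997), out of 10122 genes with a mean of at least 10 CPM. The 6 libraries form 2 groups, and all 3 genes were higher in shSTBD1, by 0.39, 0.30 and 0.24 on the log2 scale. RBM15B and ZNF652 also hold GTGTCAC in their 3′ UTR, and BICDL1 does not. The 3 genes were picked for following AKT1, so these matches are not a test of the site.

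The rest of the pathway was followed in 9 lists of genes set by role, drawn up with earlier results of these data known. The shares called in these lists are therefore not an independent test. Counting each gene once, 121 genes were tested, of which 22 were called higher and 7 lower in shSTBD1, 23.97% in all against the 15.8% of all tested genes. Their median log2 fold change was 0.03. DESeq2 called 20 of the 121 genes, and 1693 of the 15566 genes tested in all. The count was 8, all of them higher, with effective length offsets and with either limma fit. It was 19 without shSTBD1 replicate 1 and 19 without shSTBD1 replicate 3. Over all tested genes, these 2 fits also called fewer than the main fit, 1570 of 15951 and 1497 of 15823. Of the called genes, the 24 with the smallest p are named in what follows, and PIK3R2, PHLPP2, MDM2, SESN1 and RRAGD were chosen as further ones after their values were seen.

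**Figure D4:**
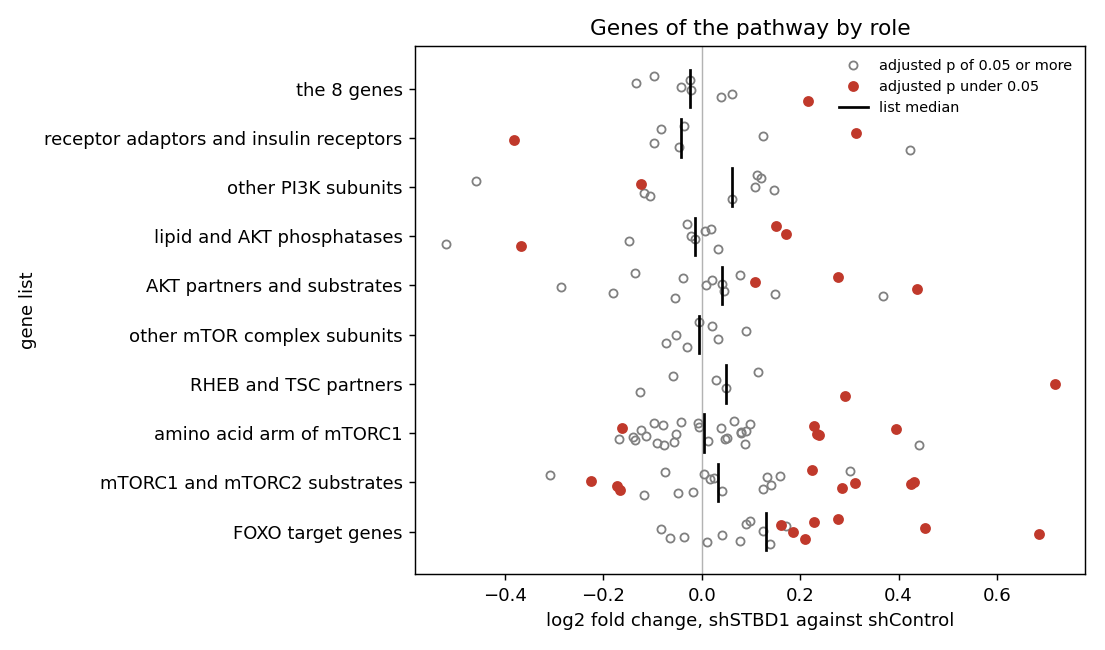
Log2 fold change (shSTBD1 against shControl, horizontal axis) of each tested gene in the 8 genes and in the 9 lists of other pathway genes. Filled red points have an adjusted p under 0.05 in edgeR, open points do not, and black lines are list medians; the other mTOR complex subunits hold no called gene, and the called FOXO targets are all higher.

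At the receptor end, IRS1, the docking protein that links insulin and IGF receptors to PI3K, rose from 242, 227 and 234 CPM to 291, 288 and 294 CPM (log2 fold change 0.31, adjusted p = 5.3e-06 from edgeR). The receptor IGF1R had 28.8, 25.5 and 25.2 CPM in shControl and 19.5, 22.2 and 19.3 CPM in shSTBD1 (-0.38, adjusted p = 0.0019 from edgeR). Its effective length was also shorter, 8493 to 9728 bases in shControl and 5128 to 6747 in shSTBD1, and with these lengths as offsets its log2 fold change was 0.22 (adjusted p = 0.31). The other 6 tested genes of this list were not called. Of 9 tested PI3K subunits outside the 8 genes, PIK3R2, a regulatory subunit, was called lower (-0.12, adjusted p = 0.037 from edgeR), with DESeq2 calling 0. That share, 11.1%, was below the share of all tested genes. Of 11 lipid and AKT phosphatases, INPP4B fell (-0.37, adjusted p = 0.0080), PPP2R2A and PHLPP2 rose (0.15 and 0.17, adjusted p = 0.0074 and 0.048, all from edgeR), and the other 8 were not called. DESeq2 called 2 of these 3, without PHLPP2 (adjusted p = 0.14).

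Of 15 partners and substrates of AKT, 3 rose: TRIB1, a pseudokinase, by 0.28, FOXO4, a transcription factor that AKT keeps out of the nucleus, by 0.44, and MDM2, the p53 ubiquitin ligase, by 0.11 (log2 fold changes, edgeR). DESeq2 called 2 of these, without MDM2 (adjusted p = 0.067). Among 7 genes around RHEB and TSC, 2 were called higher, DDIT4 and RHEBL1. DDIT4, an inhibitor of mTORC1 that acts through TSC2, went from 312, 323 and 317 CPM to 397, 386 and 383 CPM (0.29, adjusted p = 6.6e-06 from edgeR). RHEBL1, a relative of RHEB at 1.45, 1.25 and 1.69 CPM in shControl and 2.19, 2.62 and 2.37 in shSTBD1 (0.72, adjusted p = 0.037 from edgeR), passed in 6 of the 16 other settings, and DESeq2 gave it no adjusted p. Among the 7 tested subunits of the mTOR complexes other than MTOR and RPTOR, RICTOR and MLST8 included, edgeR called 0, DESeq2 called 0, and 0 had an unadjusted p under 0.05. Of the 30 genes of the amino acid arm, RRAGC, LAMTOR4, LAMTOR5 and SESN1 rose (by 0.40, 0.24, 0.23 and 0.23) and RRAGD fell by 0.16 on the log2 scale. DESeq2 called 3 of these 5, without SESN1 and RRAGD (adjusted p = 0.13 and 0.15). With effective length offsets 1 of the 5, RRAGC, passed. In this list 16.7% of genes were called, against 15.8% of all tested genes. The share was 27.3% for the phosphatases, 28.6% around RHEB and TSC, and 3 of 15 for the AKT partners and substrates. Of the called genes in these 3 lists, 0, 1 and 1 passed with effective length offsets.

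The list headed mTORC1 and mTORC2 substrates also holds genes further downstream that are not direct substrates, NDRG1, PDCD4 and EIF4E among them. It had 8 of 22 genes called (36.4%, against 15.8% of all tested genes), 5 higher and 3 lower. DESeq2 called the same 8, and with effective length offsets 2 of them, MAF1 and NDRG1, passed. MAF1, the repressor of RNA polymerase III, rose from 67.2, 69.2 and 69.5 CPM to 92.4, 93.5 and 90.4 CPM (log2 fold change 0.43, adjusted p = 8.6e-07 from edgeR), and PDCD4, NDRG1, GRB10 and ULK1 by 0.43, 0.31, 0.28 and 0.22. PRKCA, LARP1 and EIF4EBP2 had log2 fold changes of -0.23, -0.17 and -0.17. Of 18 tested genes known as FOXO targets, 7 (38.9%) were called higher and 0 lower by edgeR, against 8.22% and 7.54% of all tested genes. DESeq2 called 3 of these 7 and gave FBXO32 no adjusted p, and 3 passed with effective length offsets. The median log2 fold change of the list was 0.13. The 7 were KLF6 (0.45), FBXO32 (0.69), CCNG2 (0.21), GADD45A (0.19), PINK1 (0.16), TRIB1 and SESN1, and TRIB1 and SESN1 stand in a further list each. KLF6 and TRIB1 passed in all 16 other settings, FBXO32 in 14, GADD45A in 9, and CCNG2 and PINK1 in 8 each. FBXO32 stood at 2.35 to 2.75 CPM in shControl and 3.73 to 4.54 in shSTBD1. Its log2 fold change was 1.21 with effective length offsets.

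Among the 24 named pathway genes, 19 higher and 5 lower, the 3′ UTRs of KLF6, MAF1, IRS1, RRAGC and GRB10 hold GTGTCAC, and all 5 of these were higher. Over all tested genes with an annotated 3′ UTR, 9.81% held these bases. The 24 genes were chosen as called ones and 19 of them were higher, so the shared direction of the 5 is not a test of the site. The part of the site in their levels was not tested. Over the 10 epithelial markers, 4 of 7 tested called higher, the summed level was 3349 to 3588 CPM in shControl and 3974 to 4063 in shSTBD1, and CDX1, an intestinal transcription factor, was at 0 in all 6 libraries. Over 12 markers of other cell types the sum was 42.9 to 48.4 CPM in shControl and 51.8 to 55.5 in shSTBD1. In bulk RNA, a change in the number of cells of a type and a change in RNA per cell cannot be told apart. The part of these markers in the pathway levels was not tested.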

How the data were processed

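RNA of 3 shControl and 3 shSTBD1 replicates of HCT116 was sequenced, grouped by the sample labels. The authors cleaned the reads, aligned them to Hg38 with STAR 2.7.1a and Ensembl gene models, and deposited RSEM 1.3.1 gene tables. Their expected counts are estimated read numbers, deposited without normalization. The authors' TPM values are scaled by effective length and to the same total in every library. The library kit named in the labels does not mark strand in its plain form, and the counting setting is not given in the sources used here.

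Expected counts were rounded, filtered with filterByExpr, which left 15566 genes, scaled with TMM (factors 0.979 to 1.009) and compared with edgeR 4.0.16 (R 4.3.3) by the quasi-likelihood F-test, with Benjamini-Hochberg adjustment over all tested genes. CPM in the text use the TMM library sizes. Standard errors and 95% intervals follow from each gene's estimate and F statistic. Positions, 3′ UTRs and overlaps came from GRCh38 with GENCODE release 44, a later annotation than the authors used. Of 58395 genes, 57754 had a symbol. The p-values measure the spread between these replicates, which may be partly technical.

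The alternatives were DESeq2 1.42.0, limma 3.58.1 on log2(TPM + 1) and log2(TPM + 0.1), library size or upper-quartile scaling, no filter, at least 10 counts in every library, unrounded counts, effective length offsets, the replicate number as a block, and each library left out in turn. Named genes are the 8 genes, STBD1, overlapping genes, the 3 genes most like AKT1, and up to 24 pathway genes with an adjusted p under 0.05 and no overlap between groups, by smallest p. SOD2 and SAMTOR of the lists matched no identifier. The genes and lists were chosen with earlier results of these data known, and so was the search for GTGTCAC. In simulated counts of 15566 genes drawn from these libraries, edgeR recovered 44.7% of genes lowered and 38% of genes raised by 0.25 on the log2 scale, 70% at 0.5 and 90% at 1, and 6.98% of 129 calls were on unchanged genes.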

Additional observations from a re-analysis of the deposited data

How the results depend on the processing

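AKT1 kept its direction and its side of the threshold in all 16 alternatives. RPTOR passed as a further gene, which made the count of called genes 2 in place of 1, without the filter, with at least 10 counts in every library and under the replicate block. With 1 library left out, the count ran from 1 to 2 (RPTOR without shControl replicate 2, MTOR without shControl replicate 1). Over all tested genes, between 1409 and 2577 were called with 1 library left out. The number of called pathway genes was 8 with effective length offsets, 8 with limma on log2(TPM + 1) and 8 with limma on log2(TPM + 0.1), and ran from 19 to 27 with 1 library left out. In these same 3 fits, in that order, the log2 fold change changed sign for AKT2 (-0.013, -0.023 and -0.023), MTOR (-0.048, -0.054 and -0.055) and IGF1R (0.22, 0.17 and 0.22). With 1 library left out, PIK3CA ran from -0.046 to 0.024 and PIK3CB from -0.093 to 0.053. STBD1 missed the threshold in limma, at -0.54 (adjusted p = 0.065) and -0.65 (adjusted p = 0.067). The cause was not tested. Deviations of same-numbered libraries correlated at 0.07, 0.07 and -0.01, and those of unlike-numbered libraries at -0.07 to 0.01. These values do not settle whether the replicate numbers pair the libraries. The replicate block called 26 pathway genes, against 29 without it, and 2579 of all tested genes, against 2453. The smallest change simulated, 0.25 on the log2 scale, was recovered for 38% to 44.7% of genes. That simulation gave 129 calls, against 2453 in these data, so its recovery does not carry over to single genes here. Recovery of differences as small as those of RPTOR and TSC2 was not tested.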
